A study of Mus musculus with 16 samples.

Results

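The step examined is the loss of DNA methylation between day 8 and day 10 of the chemical reprogramming of mouse fibroblasts into pluripotent cells. Both groups, D8 and D10, are labelled as reprogramming intermediates and come from mouse embryonic fibroblasts (MEFs) of the strain given as 129XOG2, taken at embryonic day 13.5. In OG2 mice, green fluorescence reports the activity of Oct4, a transcription factor of pluripotent cells. MEFs of passages 1 to 3 were seeded and placed in a reprogramming medium of small molecules, which both groups share and whose composition the labels do not give. The medium was renewed daily from day 4 to day 8 and otherwise every 2 days. Methylation was read by reduced representation bisulfite sequencing (RRBS), in which MspI digestion enriches CpG-rich fragments and bisulfite converts unmethylated cytosine. Each group had 2 libraries, of the 16 libraries and 8 groups in the series. The labels name no sort of the cells and do not say whether the replicates were separate cultures, so the spread between them may be technical.

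The members were chosen by coverage alone. A CpG site, counted separately on each strand, entered when it had at least 10 reads in all 4 libraries, which held for 1236129 autosomal sites. These sites filled 119290 autosomal tiles of 1 kb with at least 3 sites each. The same rule over all 16 libraries leaves 92383 autosomal tiles, or 94337 with X and Y. The level of a tile is its methylated reads over all its reads. Reads were summed over the sites of a tile, so a read that covers several sites counted once for each. All read numbers of tiles and windows below are such sums, and the number of separate reads is lower. A tile of median depth held between 214 and 237 reads, depending on the library. The 5th percentile lay between 54 and 62 reads and the 95th between 1018 and 1228. Which gene lies in a tile was not looked up, because the gene and promoter tables at hand belong to another genome build.

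CpG methylation is copied to the new strand after each DNA replication by the maintenance methyltransferase Dnmt1, which is guided to hemimethylated CpGs by Uhrf1. It is lost either by dilution, when copying fails in dividing cells, or by oxidation through Tet enzymes and repair. Regions dense in CpGs, such as promoter CpG islands, are unmethylated in most cell types, and the rest of the genome is largely methylated. RRBS of bulk DNA gives the mean over the cells and alleles of a culture. Fewer methylated cells and less methylation in each cell therefore cannot be told apart at any value below.

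Methylation was lower in both D10 libraries than in both D8 libraries. The mean level of the sites was 34.7% and 33.2% in the D8 libraries and 25.5% and 25.9% in the D10 libraries. D10 minus D8 was -8.26 points ± 0.76 (SE). There was no overlap, and 2 libraries against 2 cannot give an exact permutation p (two-sided) below the 0.33 found here. With each tile counted once, the level was 37.6% and 36.1% at D8 and 26.9% and 27.4% at D10. The share of methylation lost in the step, 1 minus the D10 level over the D8 level, was 26.3%. Over the 4 combinations of a D8 and a D10 library it ranged from 24.1% to 28.5%. When each read counted equally, which gives CpG-rich tiles more weight, the share was 20.95%.

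The whole distribution of tile levels shifted downwards. Tiles under 20% made up 19.4% and 20.5% of the tiles in the D8 libraries and 37.6% and 36.3% in the D10 libraries. Tiles at 80% or more made up 1.25% and 0.812% at D8, and 0.325% and 0.319% at D10. At D8 the fullest 5-point bin was that from 40% to 45% in replicate 1 and from 35% to 40% in replicate 2, and at D10 it was that from 20% to 25% in both replicates. At the scale of single sites, 11.01% and 11.3% had no methylated read at D8, and 18.0% and 17.3% had none at D10. Neither group formed a second peak of fully methylated tiles.

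**Figure D1:**
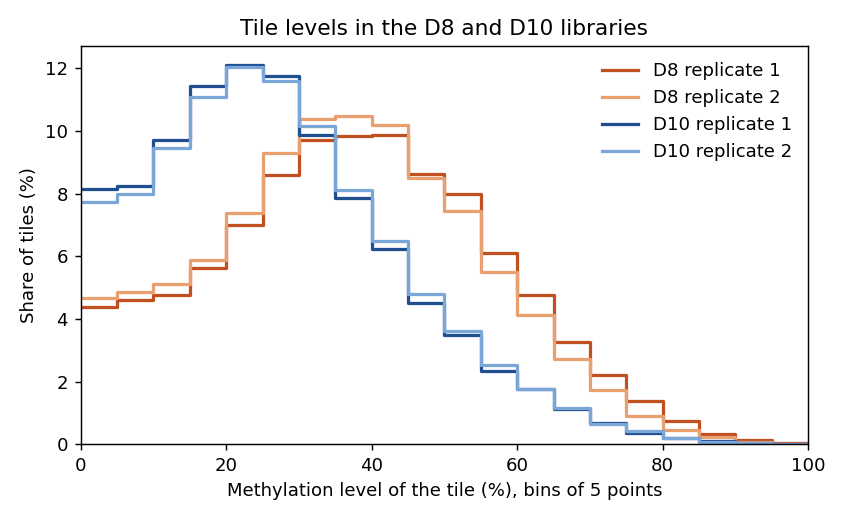
Share of the 119290 tiles (vertical axis, %) by methylation level of the tile (horizontal axis, %, in 5-point bins), 1 line for each D8 and D10 library. The 2 D10 lines lie on each other and to the left of the 2 D8 lines, with 37.6% and 36.3% of tiles under 20% against 19.4% and 20.5%.

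Tiles with little methylation in other groups were followed as a low reference. No value here measures bisulfite conversion, and whether it differed between days was not tested. In 4297 tiles under 10% in each library of D0 (the starting MEFs), D6 and iPSC (the induced pluripotent cells), the level was 6.25% and 5.96% at D8 and 4.51% and 4.64% at D10. D10 minus D8 was -1.53 points ± 0.16 (SE), with no overlap (exact p = 0.33). At D12 it was 6.61%. With each library's level in these tiles subtracted, the share of methylation lost was 26.5%.

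Single tiles were then tested with edgeR's quasi-likelihood test on methylated and unmethylated reads, with a tile called at an adjusted p under 0.05 (Benjamini-Hochberg over all tiles) and a difference of at least 10 points. Fitted on the 4 libraries alone, 0 of 119290 tiles (0%) were called lower and 0 higher, and limma also called 0 in either direction. The smallest adjusted p was 0.203. At an unadjusted p under 0.05, 22641 tiles (19%) were at least 10 points lower in edgeR and 386 (0.324%) at least 10 points higher, and limma gave 22241 and 407. When all 16 libraries were fitted together and shared 1 estimate of the spread, 16886 tiles (14.2%) were called lower and 79 (0.0662%) higher. The call of a single tile therefore depended on which libraries gave the spread.

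The direction was nevertheless shared by most tiles. The median difference was -9.11 points, with 5th and 95th percentiles of -26.2 and 4.37. In 68567 tiles (57.5%) both D10 libraries lay below both D8 libraries, and in 3572 (2.99%) both lay above. Among tiles without overlap, 14757 were at least 20 points lower and 198 at least 20 points higher.

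Which tiles stood lowest against D8 was only weakly shared between replicates. The tile differences of the replicate 1 libraries and of the replicate 2 libraries had r = 0.165 across 119290 tiles, which share their sequence and much of their depth. The 8513 tiles that lay at least 30 points lower in replicate 1 had a median difference of -12.8 points in replicate 2, against -8.15 for all tiles. The 5212 tiles chosen in the same way in replicate 2 had a median of -16.4 points in replicate 1, against -9.77 for all tiles. Of the 4621 tiles that lay at least 10 points higher in replicate 1, 67.4% were lower in replicate 2, and of the 5604 chosen in replicate 2, 72.7% were lower in replicate 1. Replicates of the same day also lay far apart by tile. The root mean square difference between the D8 replicates was 12.1 points, and between the D10 replicates it was 10.7 points. Sampling would give 5.08 and 4.79 if the counts at all sites of a tile were independent. Sites on the same read are not independent, so sampling of reads would give more than this, by an amount that was not measured.

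The share lost depended on how methylated a tile was at D8. To keep read sampling in the class out of the loss, the start class of a tile was taken from 1 D8 library. The loss was taken from the other D8 library and each D10 library, which gives 4 values per class. In that other D8 library, the class at 60% to 80% averaged 59.6% and the class at 80% or more 70.1%. The class limits are therefore not the levels from which the loss is counted. Tiles at 10% to 20% lost 33.6% of their methylation (range 30.5% to 37.1%) and tiles at 20% to 40% lost 31.5% (29.1% to 33.6%). Tiles at 40% to 60% lost 25.3% (23.4% to 27.2%) and those at 60% to 80% lost 17.8% (16.9% to 18.5%). Tiles at 80% or more lost 13.1% (12.3% to 13.6%), a value that was 6.95% with at least 20 reads per site and 8.96% on sites covered in all 16 libraries. With the start class taken from the D0 mean, tiles at 60% to 80% lost 28.4% and those at 80% or more lost 19.9%. From 20% upwards the ranges of neighbouring classes did not overlap, so that the share lost was lower in each higher class.

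In percentage points the loss was largest in the middle. D10 minus D8 was -6.34 points in tiles classed at 10% to 20%, -10.4 at 20% to 40%, -11.9 at 40% to 60%, -10.6 at 60% to 80% and -9.20 at 80% or more. These differences too are counted from the other D8 library, where the last class averaged 70.1%. Tiles under 10% differed by -2.43 points, and lost 25.9% (21.1% to 31.3%) of a level close to that of the low reference tiles. The class at 80% or more was small, with 1494 tiles by D8 replicate 1 and 969 by D8 replicate 2, and its median of 118 reads in D8 replicate 2 was below the 215 reads of the class at 20% to 40%.

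Tiles were also classed by their D6 level, from libraries outside the comparison. From 20% upwards the share lost was again lower in each higher class, at 31.8%, 30.3%, 23.9% and 14.7%. The 16644 tiles at 20% to 40% at D6 were at 25.9% and 24.4% at D8 and at 16.9% and 17.3% at D10, a loss ranging from 29.0% to 34.6%. The 5239 tiles at 80% or more at D6 were at 65.6% and 64.4% at D8 and at 55.2% and 55.7% at D10, a loss ranging from 13.6% to 15.9%. As a direct comparison, the level of the first class was 39.4% and 37.8% of that of the second in the D8 libraries, and 30.7% and 31.1% in the D10 libraries. That ratio was lower in both D10 libraries, with a difference of -7.77 points ± 0.83 (SE, exact permutation p = 0.33).

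The share lost also differed with the number of CpGs in a tile. This number was counted as the distinct CpGs listed in any of the 16 libraries, and so is also a measure of RRBS coverage of the tile. Tiles with 1 to 4 CpGs were at 36.6% and 34.98% at D8 and at 25.3% and 25.8% at D10, a loss of 28.6% (26.3% to 30.9%). Tiles with 5 to 9 CpGs lost 26.9% (24.7% to 29.1%) and those with 10 to 19 lost 23.2% (21.2% to 25.2%). The 10870 tiles with 20 or more CpGs were at 22.8% and 21.9% at D8 and at 18.0% and 18.4% at D10, a loss of 18.7% (16.2% to 21.04%). The level of these CpG-rich tiles was 62.3% and 62.7% of that of tiles with 1 to 4 CpGs at D8, and 71.2% of it in each D10 library. The ratio was thus 8.73 points ± 0.20 (SE) higher at D10, without overlap (exact permutation p = 0.33).

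By counts of tiles, the class with 20 or more CpGs was again the lowest, while the highest was that with 5 to 9. Both D10 libraries lay below both D8 libraries in 59.8%, 60.9%, 56.0% and 38.0% of tiles with 1 to 4, 5 to 9, 10 to 19 and 20 or more CpGs, where all tiles gave 57.5%. They lay above in 2.18%, 2.19%, 3.62% and 7.99%, against 2.99% of all tiles. In the fit of all 16 libraries, lower calls made up 14.1%, 16.6%, 13.8% and 5.28% of the 4 classes, against 14.2% overall. A lower call needs a fall of at least 10 points, which a tile with a mean under 10% at D8 cannot make. By D8 replicate 1, 4029 of 10870 tiles with 20 or more CpGs were under 10%, against 1434 of 41465 with 1 to 4. CpG-rich tiles also held more reads, with a median of 858 at D8 against 142 for tiles with 1 to 4 CpGs. The part of start level and of depth in these shares was not tested.

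CpG-rich tiles start low, so CpG number was also read within start classes. Tiles with 1 to 4 CpGs held a median of 142 reads at D8 against 858 with 20 or more. Their start class, taken from 1 library, is therefore less exact, and its part in the differences below was not tested. At a start level of 60% to 80%, tiles with 1 to 4 CpGs lost 23.4% (21.1% to 25.4%), those with 5 to 9 lost 18.9% (18.2% to 19.3%), those with 10 to 19 lost 14.2% (13.7% to 14.7%) and those with 20 or more lost 11.2% (10.1% to 12.2%). At 80% or more the 4 classes lost 18.4%, 15.5%, 9.004% and 7.07%. At 40% to 60% the classes lay closer together, between 21.8% and 26.5%. In the class at 20% to 40%, tiles with up to 19 CpGs lost between 30.7% and 32.8% and only those with 20 or more stood below, at 24.1% (20.98% to 26.8%). The largest share lost, 37.9% (34.8% to 41.7%), was in tiles at 10% to 20% with 5 to 9 CpGs, and the smallest, 7.07% (6.35% to 8.39%), in CpG-rich tiles at 80% or more.

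**Figure D2:**
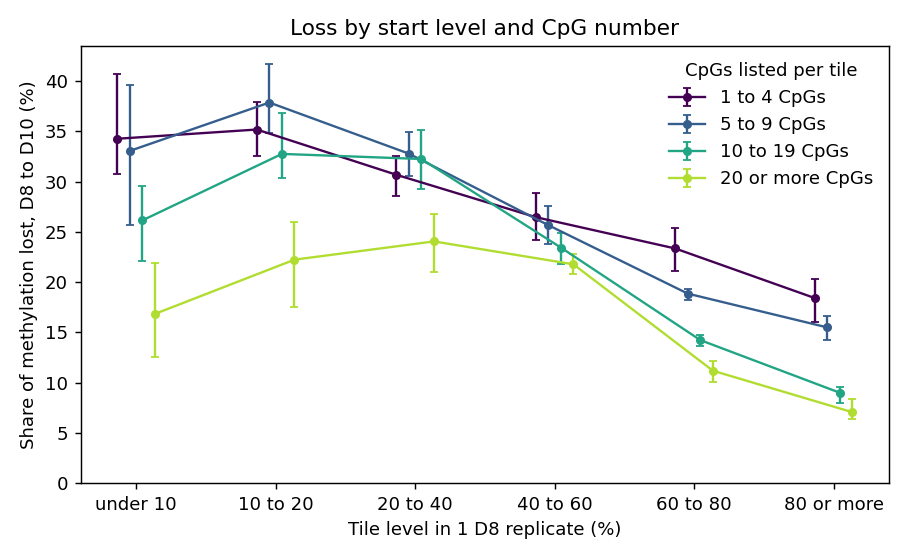
Share of methylation lost from D8 to D10 (vertical axis, %) by tile level in 1 D8 replicate (horizontal axis, %), 1 line per class of CpG number; points are means and bars the lowest and highest of 4 values, each from the other D8 library and 1 D10 library. At start levels of 60% and above the lines are ordered by CpG number, from 23.4% to 11.2% at 60% to 80%, and tiles with 20 or more CpGs lie lowest in each start class.

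Most CpG-rich tiles at 80% or more in 1 D8 library were at 60% or more at D10. Of the 107 tiles with 20 or more CpGs at 80% or more in D8 replicate 1, 82.2% were still at 60% or more at D10. By D8 replicate 2 there were 96 such tiles, of which 90.6% were at 60% or more at D10. Among tiles with 1 to 4 CpGs at 80% or more, 29.5% (353 tiles, by replicate 1) and 44.0% (175 tiles, by replicate 2) were at 60% or more at D10. The difference between the CpG classes had the same direction in both D8 libraries. These shares have no baseline from the other D8 library, where all tiles classed at 80% or more averaged 67.1% to 73.1%. A level under 60% at D10 is therefore not a loss from 80%. Tiles with 1 to 4 CpGs also held fewer reads, with a median of 142 against 858. The part of read sampling in the difference between the CpG classes was not tested. Among tiles at 80% or more at D6, the level of 1002 tiles with 1 to 4 CpGs was 87.5% and 84.5% of that of 482 tiles with 20 or more in the D8 libraries, and 74.9% and 76.7% in the D10 libraries (exact permutation p = 0.33, no overlap).

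The loss also varied along the genome. Reads of the tiles were summed over 1-Mb windows with at least 10 tiles, which gave 2377 windows with a median of 39 tiles. In the edgeR test, 2205 windows (92.8%) had an adjusted p under 0.05 and a lower level at D10, and 1 (0.0421%) had a higher one. With the minimum of 10 points, 250 (10.5%) were called lower and 0 higher, and 0 higher also at an unadjusted p under 0.05 in edgeR and in limma. The count of 250 was 412 without D8 replicate 2. The sums give CpG-rich tiles more weight, and the median window difference was -7.07 points.

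Windows differed in how much they lost, and the replicates shared part of this. Among the 1661 windows at 40% or more at D6, the median share lost was 19.8%, with 5th and 95th percentiles of 8.69% and 29.8%. The share lost in the replicate 1 libraries and that in the replicate 2 libraries had r = 0.530 across these windows. The largest loss was at chromosome 14 (17000001 to 18000000, 11 tiles), which was at 30.9% and 28.7% at D8 and at 16.9% and 19.3% at D10. A window of 87 tiles on chromosome 11 (87000001 to 88000000) was at 34.5% and 30.96% at D8 and at 19.6% and 20.7% at D10, and one on chromosome 4 (42000001 to 43000000) was at 46.8% and 38.7% and then at 26.4% and 26.3%. In these windows 38.4% to 39.2% of the methylation was lost. They were chosen for this share in these same libraries, so their values are a description. Their D8 and D10 libraries did not overlap, but both D10 libraries lay below both D8 libraries in 2296 of all 2377 windows (96.6%).

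The 3 windows at the other end lay higher at D10 than at D8. On chromosome 16 (15000001 to 16000000, 41 tiles) the level was 48.0% and 51.0% at D8 and 52.4% and 55.0% at D10. This was the window higher at D10 in edgeR (adjusted p = 0.0119), by 4.23 points. Without D8 replicate 1 there were 0 such windows, without D8 replicate 2 there were 4 and without D10 replicate 2 there were 2. The window was at 66.9% and 62.4% at D6 and at 35.2% and 34.7% at D12. The windows on chromosome 3 (25000001 to 26000000) and chromosome 12 (22000001 to 23000000) were 3.87 and 3.12 points higher at D10, with D8 and D10 libraries that overlapped and adjusted p of 0.121 and 0.178 in edgeR. On chromosome 3 the D8 libraries were at 31.1% and 37.5% and the D10 libraries at 40.4% and 36.0%.

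Regions in which RRBS measured many tiles lost more than regions with few. Windows were divided in 3 by their number of tiles, which follows the density of MspI fragments and so of CpG-rich DNA. In windows with 10 to 27 tiles, the tiles were at 40.9% and 39.6% at D8 and at 32.03% and 32.6% at D10, a loss of 19.8% (17.7% to 21.7%). In windows with 28 to 55 tiles the loss was 24.4% (22.3% to 26.4%). In those with 56 to 211 tiles the level was 36.5% and 34.9% at D8 and 25.2% and 25.7% at D10, a loss of 28.7% (26.4% to 31.0%). The direction is opposite to that of CpG number within a tile: tile-dense windows held tiles with more CpGs, 9.74 on average against 6.69 in the windows with few tiles.

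The difference was also present in tiles of 1 kind. Among tiles at 60% to 80% at D6 with 5 to 9 CpGs, those in windows with 10 to 27 tiles were at 53.3% and 52.4% at D8 and at 43.8% and 44.5% at D10, a loss of 16.5% (15.1% to 17.8%, 1995 tiles). Those in windows with 56 to 211 tiles were at 49.3% and 47.8% at D8 and at 34.9% and 35.6% at D10, a loss of 27.4% (25.6% to 29.1%, 10367 tiles). The level in the tile-dense windows was 92.4% and 91.3% of that in the tile-poor windows at D8, and 79.6% and 80.1% at D10. D10 minus D8 of this ratio was -12.0 points ± 0.61 (SE, exact permutation p = 0.33, no overlap).

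All 19 autosomes were lower in both D10 libraries than in both D8 libraries. The share lost ranged from 24.2% on chromosome 3 to 29.6% on chromosome 11, and the ranges of the 4 library combinations of these extremes did not overlap (22.3% to 26.0% and 27.2% to 31.9%). Across the 19 autosomes the share lost and the number of tiles per Mb had r = 0.839, and chromosome 3 had 39.0 tiles per Mb and chromosome 11 had 67.8. The share of tiles with 20 or more CpGs had r = 0.899 with the loss. Both are descriptions over 19 chromosomes that come from the same libraries.

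The X chromosome, which is not among the members, lost less. Its 3055 tiles, at 18.4 per Mb, were at 38.5% and 37.9% at D8 and at 31.8% and 32.4% at D10, a loss of 15.99% (14.6% to 17.4%). Its level was 102% and 105% of the autosomal level at D8 and 118% in each D10 library, a difference of 14.5 points ± 1.3 (SE, exact permutation p = 0.33, no overlap). Among tiles at 60% to 80% at D6 with 5 to 9 CpGs, X lost 13.5% (12.9% to 14.1%, 412 tiles) and the autosomes 24.6% (23.0% to 26.2%, 17050 tiles). Autosomal windows with 10 to 27 tiles came closer to X, with a loss of 16.5% (15.1% to 17.8%) in tiles of this kind. Over all their tiles these windows lost 19.8% (17.7% to 21.7%). A smaller loss was thus not particular to X. The sex of the embryos is not given in the labels.

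**Figure D3:**
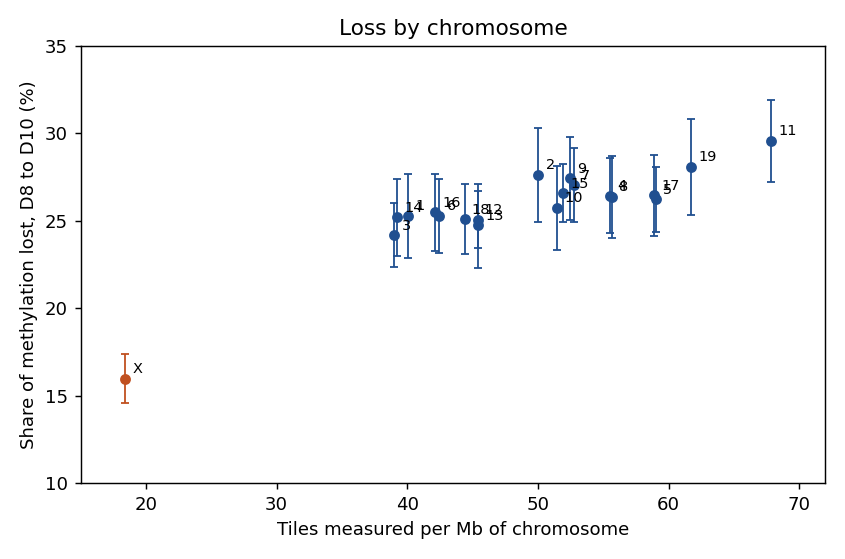
Share of methylation lost from D8 to D10 (vertical axis, %, starting at 10) by the number of tiles per Mb (horizontal axis), 1 point per chromosome; bars are the lowest and highest of the 4 library combinations. Chromosome 11 lies highest at 29.6%, the autosomes lie between 24.2% and 29.6%, and X lies below them at 15.99%.

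Tiles were also grouped by their level in MEFs and in the iPSCs sequenced alongside. The 52794 tiles at 60% or more in both lost 24.7% (22.9% to 26.4%). The 565 tiles at 60% or more in MEFs and under 20% in iPSCs were at 46.6% and 45.7% at D8 and at 36.7% in each D10 library, a loss of 20.5% (19.7% to 21.3%). The 13510 tiles under 20% in both were at 10.6% and 9.84% at D8 and at 7.53% and 7.79% at D10, a loss of 25.0% (20.8% to 29.1%). These tiles stood at 10.5% at D12. The low reference tiles were likewise lower at D10 than at D8 and D12, and incomplete conversion cannot be told apart from methylation at such levels. At 60% to 80% at D6, the sets high in MEFs and high or low in iPSCs lost 23.9% (22.2% to 25.5%, 29217 tiles) and 17.0% (15.8% to 18.3%, 295 tiles). Their mean CpG number was 7.64 and 12.8, and its part in the difference was not tested. The 289 tiles under 20% in MEFs and at 60% or more in iPSCs were at 15.1% and 12.4% at D8 and at 8.82% and 9.11% at D10, a loss of 34.2% (26.4% to 41.8%). Their mean level was 12.5% at D6 and 11.1% at D12, so it too was higher at D12 than at D10.

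The steps before and after give the scale of this one. They share libraries with it, so values stand side by side without a test. On 104044 tiles covered in all 8 libraries from D6 to D12, D6 had a mean level of 48.0% ± 0.43 (SD, n = 2) and D8 one of 35.7% ± 0.86. D10 followed with 26.4% ± 0.31 and D12 with 18.6% ± 0.089. The share lost was 25.7% (23.98% to 27.5%) from D6 to D8, 25.9% (23.999% to 27.8%) from D8 to D10 and 29.7% (28.8% to 30.5%) from D10 to D12.

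The share lost within a class of start level differed more between steps than the share over all tiles. Tiles were classed anew by the start day of each step, so a class holds different tiles in each step. Depending on the replicate, the class at 80% or more held 5638 or 5768 tiles at D6, 664 or 1013 at D8 and 318 or 321 at D10. Tiles at 80% or more in the start day lost 20.4% (19.2% to 21.5%) from D6 to D8, 10.2% (9.53% to 10.8%) from D8 to D10 and 28.8% (27.1% to 30.0%) from D10 to D12. Tiles at 60% to 80% lost 26.7%, 15.97% and 32.8% in the same order. At 10% to 20% the values were -1.97%, 33.5% and 22.5%, where a negative value is a gain. Tiles under 10% had values of -22.1%, 25.7% and -12.7%. The low reference tiles also had a lower level at D10 than at D8 and D12. Incomplete conversion and methylation of the DNA cannot be told apart in either. Tiles with 20 or more CpGs lost 8.01%, 18.8% and 4.63% in the 3 steps, and tiles with 1 to 4 CpGs lost 29.1%, 28.2% and 34.1%.

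Windows and X also differed between steps. Tiles in windows with few tiles lost 24.2% (22.9% to 25.4%) from D6 to D8, 19.2% (17.5% to 20.9%) from D8 to D10 and 36.1% (35.5% to 36.7%) from D10 to D12. Tiles in windows with many tiles lost 26.7%, 28.5% (26.5% to 30.5%) and 26.9% (25.8% to 27.9%). The order of the tile-poor and tile-dense windows was thus opposite in the last 2 steps. X lost 24.9%, 15.3% (14.1% to 16.6%) and 36.3% (35.7% to 36.8%). At D12 the tile-poor windows stood at 20.5%, the tile-dense windows at 17.9% and X at 20.7%, closer to each other than at D10, where they were at 32.03%, 24.5% and 32.5%.

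**Figure D4:**
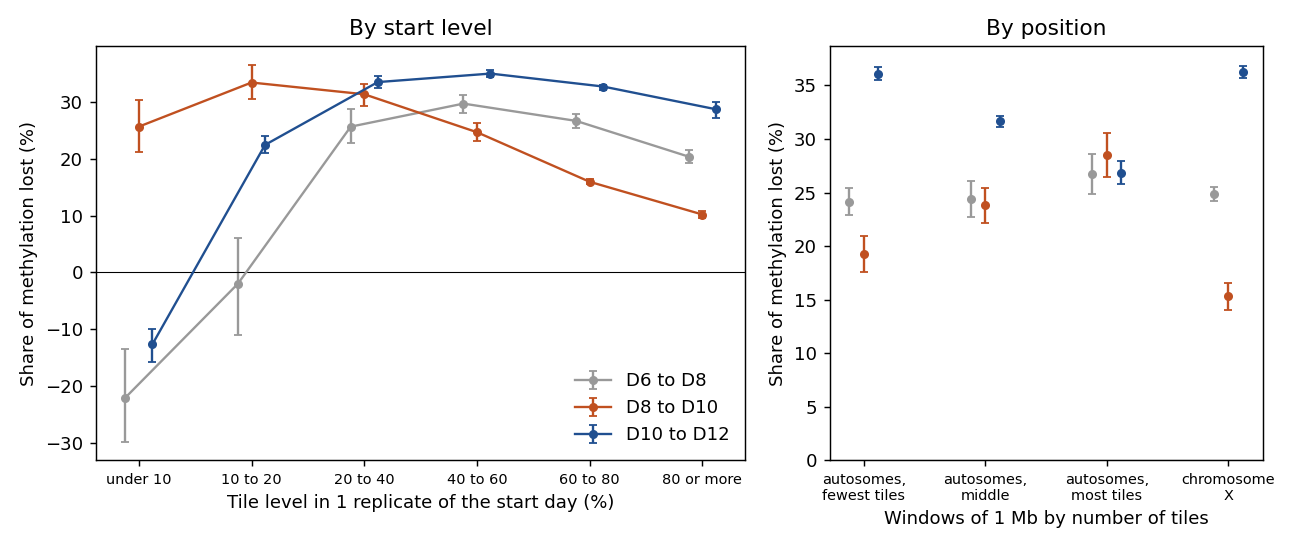
Share of methylation lost (vertical axes, %) in the steps D6 to D8, D8 to D10 and D10 to D12, by tile level in 1 replicate of the start day (left, %) and by the number of tiles in the 1-Mb window or for X (right); points are means and bars the lowest and highest of 4 library combinations. From D8 to D10 the loss drops to 10.2% in tiles at 80% or more, and on the right it rises from 19.2% in tile-poor to 28.5% in tile-dense windows, where D10 to D12 goes from 36.1% to 26.9%.

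Single tiles are named from the fit of all 16 libraries, since the fit of the 4 libraries called none. None of their differences passed when D8 and D10 were fitted alone (adjusted p = 0.203 or 0.207). They were chosen for their differences in these same libraries, so their values are a description. With the strands of each CpG merged, 4 of these differences were smaller by over 1.5 times. They were -46.2 points at chromosome 1 (183967001), -37.4 at chromosome 2 (122698001), -33.5 at chromosome 5 (108022001) and 24.4 at chromosome 9 (108776001). A tile on chromosome 1 (183967001 to 183968000), with 7 sites and 70 to 118 reads per library, was at 81.4% and 67.9% at D8 and at 5.93% and 2.63% at D10 (16-library adjusted p = 0.00894, edgeR). It was at 2.38% in the D0 library that lists it and at 26.7% and 44.7% at D12, so its course was not a steady decline. On chromosome 11 (52160001 to 52161000) the level was 80.3% and 68.7% at D8 and 5.60% and 15.4% at D10 (edgeR adjusted p = 0.00608). That tile was at 76.6% and 84.0% in MEFs, at 60.5% and 57.6% at D6 and at 17.0% and 23.0% at D12. On chromosome 10 (4225001 to 4226000) the replicates lay close to each other on both days, at 72.6% and 76.5% at D8 and 15.7% and 19.2% at D10 (edgeR adjusted p = 0.00728).

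The other named falls differed by -59.6 to -56.2 points between days. One was on chromosome 7 (67458001 to 67459000), with D10 replicates at 37.5% and 16.7%. Another, on chromosome 16 (19696001 to 19697000), went from 50% and 72.7% to 3.95% and 3.37%. A tile of chromosome 5 (108022001 to 108023000) went from 82.7% and 74.5% to 25.4% and 16.9%. Chromosome 2 held a pair, 122698001 to 122699000 and 27315001 to 27316000, and the latter was at 73.2% and 81.1% at D8, at 26.0% and 15.9% at D10 and again at 77.1% and 77.0% at D12. Among tiles with 20 or more CpGs, the largest fall was on chromosome 18 (36151001 to 36152000), from 45.5% and 51.5% to 0% in both D10 libraries (edgeR adjusted p = 0.0293), over 4 sites. That tile was at 14.3% and 13.7% at D6 and at 20% and 53.6% at D12, so its fall was not part of a steady decline. A tile on chromosome 19 (53413001 to 53414000) was at 81.7% and 78.6% in MEFs, 65.1% and 69.6% at D8, 26.8% and 20.6% at D10 and 24.8% and 30.1% at D12, and iPSCs held 82.6% and 58.8%. A CpG-rich fall on chromosome 1 (177269001 to 177270000) measured -46.6 points, and the fourth, on chromosome 3 (86455001 to 86456000), measured -46.2 points. Both tiles were lower at D6 than at D8 and higher at D12 than at D10. On chromosome 1 the level was 29.2% and 20.7% at D6 and 30% and 61.3% at D12. On chromosome 3 it was 7.69% and 34.8% at D6 and 21.3% and 28.3% at D12.

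The tiles called higher were few and often CpG-rich. Of the 79 calls in the fit of all 16 libraries, 34 had 20 or more CpGs, which is 0.313% of such tiles against 0.0662% of all tiles. Such tiles held a median of 858 reads at D8, against 142 in tiles with 1 to 4 CpGs. Their mean level at D8 was also lower, 22.4% against 35.8%. The part of depth and start level in the share called higher was not tested. The largest rise of a named tile was on chromosome 5 (143239001 to 143240000, 37 CpGs), from 12.1% and 1.04% at D8 to 61.6% and 60% at D10 (edgeR adjusted p = 0.0419). It stood at 23.2% in the D12 library that lists it. The other named rises were on chromosome 14 (45096001 to 45097000 and 43973001 to 43974000) and chromosome 9 (108776001 to 108777000), of 53.8, 39.9 and 42.2 points. On chromosome 14 at 43973001 the D10 replicates were at 81.0% and 48.4%, and the rise was 23.6 points without D10 replicate 1.

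Some tiles were almost fully methylated at D10. They were chosen for their D10 level, so their place there is a description. A tile on chromosome 4 (52821001 to 52822000), with 14 sites and 432 to 756 reads per library, was at 89.2% and 86.6% at D8 and at 92.4% and 90.3% at D10. It was at 93.8% and 93.9% in MEFs, 76.0% and 78.4% at D12, and iPSCs held 92.7% and 93.9%. The level on chromosome 5 (51164001 to 51165000) was 75.0% and 78.7% at D8, 96.7% and 93.6% at D10 and 77.1% and 65.1% at D12. The others lay on chromosome 15 (9357001 to 9358000), at 92.0% and 90.4% at D10, and on chromosome 12 (20282001 to 20283000), at 92.2% and 90%. For none of these did the test call a difference between D8 and D10, with edgeR adjusted p of 0.203 to 0.994 when D8 and D10 were fitted alone and of 0.102 to 0.982 in the 16-library fit.

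**Figure D5:**
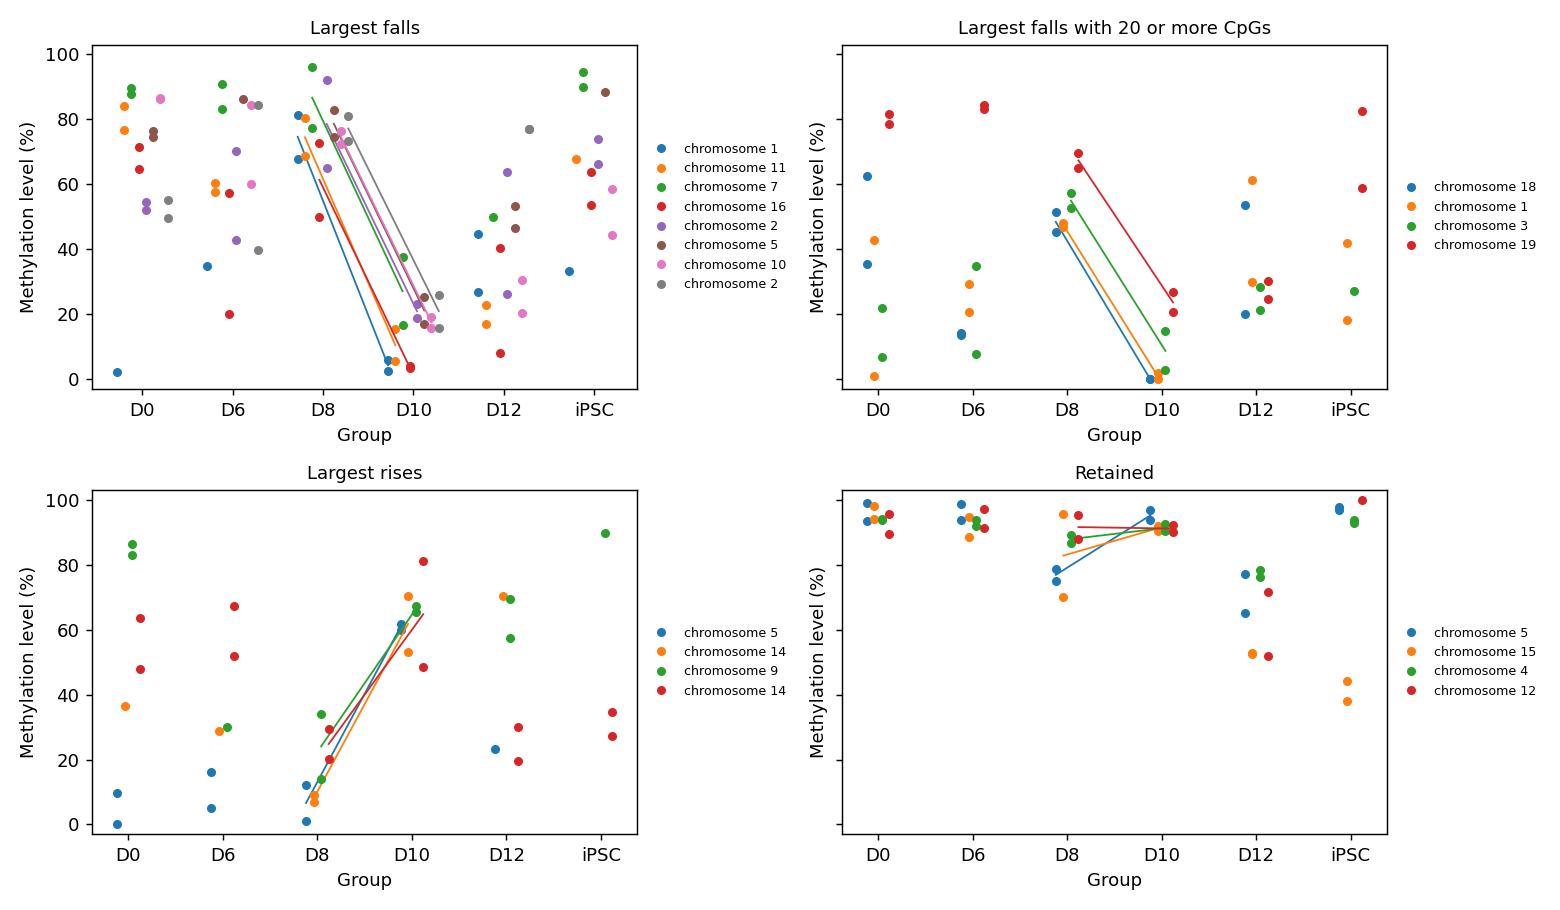
Methylation level (vertical axes, %) of the named tiles in the D0, D6, D8, D10, D12 and iPSC libraries, in 4 panels by kind of tile; each point is 1 library that lists the sites, colours are tiles and lines join the D8 and D10 means. The retained tiles lie at 90% or more in both D10 libraries, while the largest falls end between 2.63% and 37.5%.

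Runs of called tiles were limited by where RRBS measured. The autosomes held from 39.0 (chromosome 3) to 67.8 (chromosome 11) tiles per Mb, so most 1-kb stretches held no tile. How many tiles had a measured neighbour was not counted. No run of neighbouring lower calls was longer than 3 tiles, and 19 runs had that length in the 16-library fit. The first, on chromosome 2 (31019001 to 31022000), was at 34.7% and 33.7% at D8, at 17.2% and 10.9% at D10, at 62.2% in MEFs and at 26.7% in iPSCs.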

How the data were processed

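The authors' deposited tables list 1 CpG per line and strand, in the layout of methylKit, with the coverage as a count of reads and the percent of reads called methylated, per the file headers. The build was GRCm39 and the tools named are methylKit, Bowtie2, Bismark (0.23.0) and fastp (0.20.1), per the submitters' processing notes. For trimming and duplicates the settings were not given in the sources used here, and reads without molecular identifiers are not independent molecules. Coverage times percent gave whole methylated reads at each listed site, within 0.005 points of percent (sites of very high coverage were not checked). Over the listed sites, the coverage of the 4 libraries summed to between 51857112 and 62173437, with a read counted at each site it covers. No site had under 10 reads. Tiles and 1-Mb windows are given on GRCm39, counted from 1.

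Tests used edgeR 4.0.16 (R 4.3.3), with terms for each library and for methylation in each group and 1 dispersion for all features, on D8 and D10 alone, and were tested on simulated reads. Alternatives were limma 3.58.1 (1 read added to each count), all 16 libraries, a replicate block, other coverage, site and tile settings, and leaving out each library. Levels of other groups use the reads listed at the same sites. Start levels, CpG classes and comparisons were chosen with earlier results of these data known. Tiles were to be named among called tiles without overlap and with at least 50 reads per library (8 largest falls, 4 rises, 4 falls with 20 or more CpGs), with 4 tiles of the highest D10 level among those at 60% or more at D6, and 3 windows at each end. As D8 and D10 alone gave no calls, those of the 16-library fit were used, a choice made after seeing the data. Groups of windows by tile number, patterns, X and counts without overlap were also chosen after seeing the data. Same-numbered libraries were not treated as pairs in the tests, except with the replicate block.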

Additional observations from a re-analysis of the deposited data

How the results depend on the processing

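The count of tiles called lower was 0, and 0 higher, under each coverage, strand, site-number and tile-size setting, with limma, with a minimum of 25 points and without any 1 library (range 0 to 0), and it was 16886 lower and 79 higher only in the fit of all 16 libraries. With a replicate block 0 tiles were called in either direction and 250 windows were lower, as without it. The window count was also 250 with limma, with all 16 libraries and at an unadjusted p under 0.05 in edgeR. An equal count of windows therefore cannot show what the block changed. The deviations of same-numbered libraries from their group means had r = -0.0074 across tiles. This shows no deviation shared by tile, but it cannot decide whether same-numbered libraries came from 1 culture. Windows called lower numbered 0 with a minimum of 25 points and 2205 with no minimum, and between 175 and 412 when 1 library was left out, the 412 without D8 replicate 2.

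The difference in the mean level of sites was -7.34 points with at least 20 reads per site and lay between -8.98 and -7.53 when 1 library was left out. The share lost was 20.95% with each read counted equally and between 24.8% and 27.8% otherwise, the latter without D8 replicate 2. The gap between tiles with 1 to 4 and with 20 or more CpGs was 9.97 points of share lost. It was 8.59 with at least 20 reads per site, 9.46 with strands merged, 10.3 with at least 6 sites per tile, 8.44 with sites in all 16 libraries, 13.1 with the level of the low reference tiles subtracted and 13.7 with each read counted equally, and 9.86 to 10.1 without 1 library. The gap between tiles that started at 20% to 40% and at 80% or more was 18.3 points. It was 24.6, 15.3, 21.2 and 22.7 under the first 4 of these settings, 20.9 with the level of the low reference tiles subtracted, 17.1 and 11.6 with the start class from the D6 and the D0 mean and 15.8 to 18.4 without 1 library. When 1 library was left out the start class also came from the D6 mean, so both choices changed at once. The cause was not tested for any of these moves. In retained tiles, which the test did not call, the sign changed at chromosome 15 (9357001), from 8.42 to -4.34 points without D8 replicate 1. It also changed at chromosome 12 (20282001), from -0.45 to 3.16 points without D8 replicate 2 and to 0.64 without D10 replicate 2, with -4.07 without D8 replicate 1. No other direction reversed. A tile of median depth has 214 to 237 reads per library, which limits single tiles more than windows.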
